A study of Mus musculus with 6 samples.

Results

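The 45 genes described here are markers of hepatic stellate cells and the non-collagen part of the liver's extracellular matrix, together with the TGF-beta axis, collagen crosslinkers, matrix proteases and protease inhibitors. They were chosen by name with earlier results of these data known, so their shares beside those of all genes are descriptions. All 45 had a row among the 22173 gene symbols of the deposited table. Liver RNA was sequenced from 3 mice given DDK and 3 mice given vehicle. All 6 mice were wild type, were 6 weeks old when the HFHC diet began, and ate it for 16 weeks. For the last 4 of these weeks they also received DDK or vehicle. HFHC and DDK are not spelled out in the labels, though DDK is termed a limonoid in the title. Sex and strain are not stated there, and there was no group on another diet, so levels in healthy liver are not known from these data.

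Hepatic stellate cells lie between hepatocytes and the sinusoidal endothelium and store vitamin A as retinyl esters. In injured liver they can become myofibroblasts, which contract and secrete matrix. TGF-beta, released from a latent form, acts through TGFBR1 and TGFBR2 and the SMAD2 and SMAD3 proteins and is a main inducer of this change, and SMAD7 feeds back to inhibit it. Matrix is then crosslinked by lysyl oxidases, cut by matrix metalloproteinases (MMPs) and shielded by their inhibitors, the TIMPs. Many of these genes are also active in other liver cells, such as Fn1 in hepatocytes and Vim, Sparc and Tgfb1 in endothelial cells or macrophages. In whole liver RNA, fewer cells of a type and less RNA per cell cannot be told apart.

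Levels are given as FPKM, fragments per kilobase of gene length and scaled to the library's total fragments, so they may be compared between genes. The libraries held 26576291 to 30237490 fragments in DDK and 33963898 to 36105315 in vehicle, recovered from the FPKM values. For a gene of 2000 bases, 3 fragments stood for an FPKM of 0.0496 to 0.0564 in DDK and 0.0415 to 0.0442 in vehicle. Size factors by the median-ratio method ran from 0.867 to 0.933 for DDK and from 1.02 to 1.22 for vehicle. The median log2 fold change over all genes tested was -0.23 as deposited and 0.0018 after scaling by these factors. The first principal component ran from -36.4 to -23.6 over the DDK livers and was 14.1, 36.2 and 40.0 in vehicle replicates 1, 2 and 3. Hepatocyte markers dominated every library, with summed FPKM of 63180 to 66190 in DDK and 38220 to 49290 in vehicle for 8 genes. The stellate markers Lrat and Reln were detected in all 6 livers at an FPKM of 1.49 to 4.94.

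Most of the 45 genes stood lower in DDK than in vehicle livers, and none was higher by test. At an unadjusted p under 0.05 also 0 were higher, by limma or voom without rescaling between libraries. The inhibitor Timp1, the proteases Mmp2 and Mmp13, the crosslinker Lox, the basement membrane linker Nid1 and the proteoglycan Lum were more than 4-fold lower in mean FPKM. So were Hgf, Tgfb3 and Tgfb2, of which Tgfb2 had overlapping groups and did not pass (voom, adjusted p = 0.264). Acta2, Des, Lama4 and Mmp14, by contrast, had overlapping groups and fold changes near 0. In 30 of the 45 genes (66.7%) every DDK liver was below every vehicle liver, against 33.8% of the 14739 genes with at least 10 fragments in total. For 0 members was every DDK liver above every vehicle liver, against 11.6% of those genes.

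By limma on log2(FPKM + 1), with p adjusted by Benjamini-Hochberg over all 10681 genes tested (those with 3 or more libraries at or above an FPKM of 0.5), 37 members could be tested. Of these, 24 fell and 0 rose at an adjusted p under 0.05, against 30.3% of all genes that fell and 10.2% that rose. The filter favours genes that are high in vehicle, since 11 of the 37 reached 0.5 in fewer than 3 DDK livers. Pdgfra, Hgf, Eln, Fbln2 and Loxl2 reached it in 0 DDK livers and so entered this test through the vehicle livers alone. Of the 26 members at or above 0.5 in every DDK liver 14 fell, as did 28.8% of all 9732 such genes. A second fit, limma's voom on the recovered fragments of all genes with at least 10, took in all 45 members whatever group they were high in. There 28 fell and 0 rose, against 22.2% and 6.72% of all genes. The 24 calls of the first test were all among these 28, and the other 4 were Tgfb3, Fbn1, Lox and Mmp13. After median-ratio scaling 21 members fell and 0 rose by limma, where 15.4% of all genes fell and 18.4% rose.

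**Figure D1:**
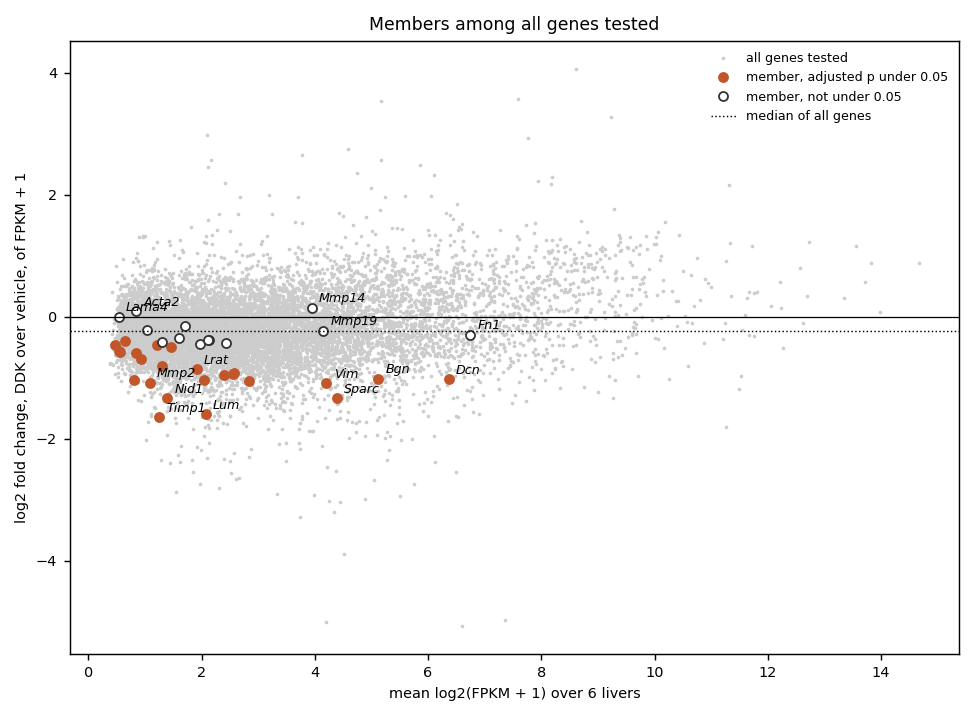
Each point is a gene tested by limma, with its mean log2(FPKM + 1) over 6 livers on the x axis and its log2 fold change, DDK over vehicle, on the y axis. Filled circles are the 24 members past an adjusted p of 0.05 and open circles the 13 that were not, and the dotted line marks the median of all genes at -0.23. No filled member lies above 0, and the calls run from low genes such as Timp1 to Dcn among the most abundant members.

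The median log2 fold change of the 37 members tested by limma was -0.58, or -0.35 relative to all genes. By voom, which adds no FPKM offset and so shows low genes with larger changes, the median of the 45 was -1.15 and that of all genes -0.34. By voom 43 of the 45 fold changes were negative, and those of Acta2 and Mmp14 were positive without passing the test. Within the vehicle group, replicate 1 was the lowest liver for 35 of the 45 genes (77.8%), against 52.7% of the 14739 genes. Without it 25 of 32 members tested by limma fell, where 39.6% of all genes fell. Without vehicle replicate 2 it was 16 of 32 members and 19.8% of all genes, and without vehicle replicate 3 it was 16 of 31 members and 16.5%. Without DDK replicate 2, 18 of 36 members and 16.5% of all genes fell. By voom 36 of the 45 fell without vehicle replicate 1, where 34.3% of all genes fell, and 15 without DDK replicate 2, where 9.3% did.

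**Figure D2:**
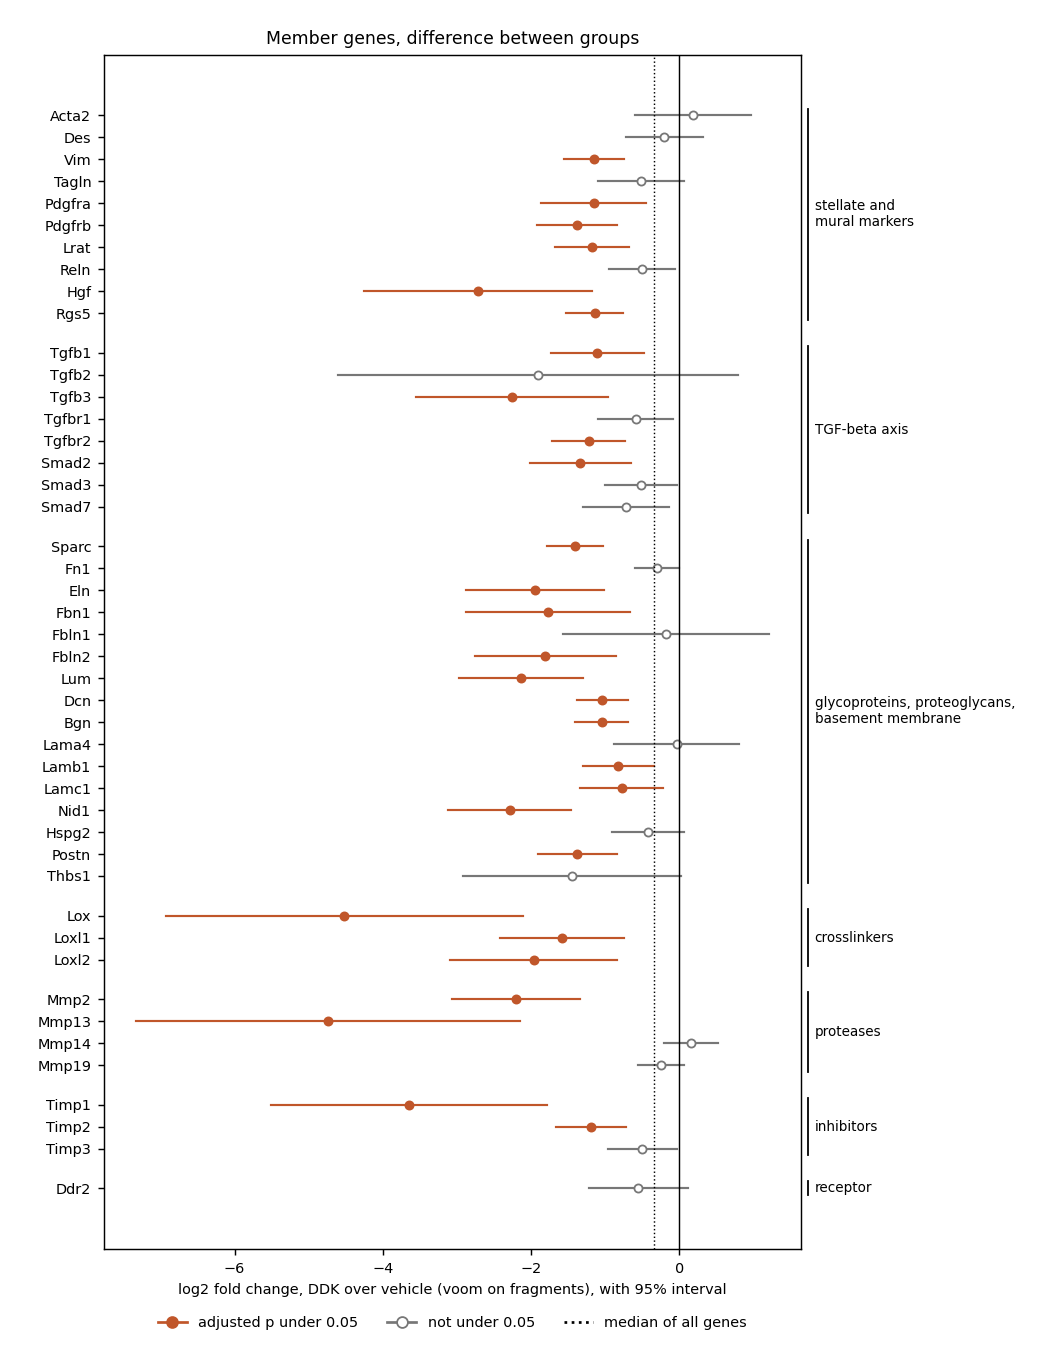
Points give the log2 fold change, DDK over vehicle, of each member by voom on fragments, with its 95% interval, ordered by role. Filled points passed an adjusted p of 0.05, and the dotted line is the median of all genes at -0.34. Lox, Mmp13 and Timp1 lie farthest to the left with wide intervals, while Acta2, Lama4, Fbln1 and Mmp14 lie near 0.

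Among 10 stellate and mural cell markers, 6 fell. Lrat, the enzyme that esterifies retinol for storage and a defining stellate gene, had an FPKM of 2.14, 1.49 and 1.80 in DDK livers, against 3.15, 4.87 and 4.39 in vehicle livers. The groups did not overlap, and the highest DDK liver was well under the lowest vehicle liver. The log2 fold change was -0.86 ± 0.17 (SE, limma, adjusted p = 0.00478). Pdgfrb, the PDGF receptor beta, which drives stellate cell growth, stood at 0.774, 0.819 and 0.996 in DDK and 1.78, 2.69 and 2.39 in vehicle. All 3 DDK livers were under the lowest vehicle liver, vehicle replicate 1, and the change was -0.81 ± 0.15 (limma, adjusted p = 0.00334). Rgs5, a regulator of G protein signalling used as a pericyte marker, was at 2.98, 2.93 and 3.83 in DDK and 6.40, 7.68 and 7.42 in vehicle (-0.95 ± 0.15, limma, adjusted p = 0.00197). Its values were tight in both groups, with no overlap.

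The intermediate filament gene Vim, made by all mesenchymal and many immune cells, averaged 11.8 ± 2.09 FPKM in DDK and 26.1 ± 4.27 in vehicle livers (SD, n = 3 each, limma, adjusted p = 0.00183). Hgf, the hepatocyte growth factor that stellate cells make for hepatocytes, had 0.194, 0.302 and 0.161 FPKM in DDK livers and 0.773, 1.37 and 2.70 in vehicle livers. Vehicle livers differed 3-fold or more among themselves, yet the lowest was above every DDK liver. Mean Hgf was 7.36-fold lower in DDK, and 4.88-fold without vehicle replicate 3 (limma log2 fold change -1.03 ± 0.23, adjusted p = 0.00732). By voom, which did not use the FPKM filter, the adjusted p for Hgf was 0.0152. Pdgfra, the PDGF receptor alpha, stood at 0.370 ± 0.134 in DDK and 0.802 ± 0.126 in vehicle (limma, adjusted p = 0.0298, and voom, 0.0213). The limma call was lost in 6 of 16 alternatives, among them median-ratio scaling (adjusted p = 0.0794) and length correction (0.501), with adjusted p from 0.0137 to 0.501.

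Acta2, Des, Tagln and Reln did not pass. Acta2, smooth muscle alpha-actin, the usual marker of myofibroblasts, had 0.773, 1.17 and 0.653 FPKM in DDK livers, against 0.596, 0.826 and 0.80 in vehicle livers. These values rest on 56 to 88 fragments in DDK and 61 to 80 in vehicle libraries, and the groups overlapped. The limma change was 0.09 ± 0.14, with a 95% interval of -0.22 to 0.40 (adjusted p = 0.613). The estimate turned slightly negative under TPM (-0.022) and without DDK replicate 2 (-0.021). Over the alternatives adjusted p for Acta2 ran from 0.0839 to 0.927. Des, desmin, a muscle and stellate filament protein, stood at 2.39, 1.96 and 1.98 in DDK and 2.35, 2.03 and 2.98 in vehicle (-0.14 ± 0.15, limma, adjusted p = 0.458), and its sign turned after median-ratio scaling (0.071). Tagln, the actin-binding protein transgelin, had 3.72 ± 0.946 FPKM in DDK and 5.33 ± 1.07 in vehicle (limma, adjusted p = 0.0980). In the GENCODE M21 annotation 67.9% of its exonic bases overlap exons on the opposite strand, Pcsk7 among them, and the library kit does not mark strand. Reln, the secreted glycoprotein reelin, which in liver marks stellate cells, was at 3.38, 2.91 and 2.33 in DDK and 3.12, 4.21 and 4.94 in vehicle (-0.39 ± 0.18, limma, adjusted p = 0.104). Vehicle replicate 1 lay inside the DDK range for Reln, and without that library both Tagln (adjusted p = 0.0281) and Reln (0.0210) passed as lower, as they did under TPM (0.0374 for Tagln and 0.0350 for Reln). Over the alternatives adjusted p ran from 0.0281 to 0.564 for Tagln and from 0.0210 to 0.617 for Reln.

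As Acta2 is the usual marker of myofibroblasts and did not pass, its promoter is shown here, from RefSeq on GRCm38.p6, chr19:34255324-34255623 on the minus strand, 250 bases before to 50 after the annotated start.
Acta2: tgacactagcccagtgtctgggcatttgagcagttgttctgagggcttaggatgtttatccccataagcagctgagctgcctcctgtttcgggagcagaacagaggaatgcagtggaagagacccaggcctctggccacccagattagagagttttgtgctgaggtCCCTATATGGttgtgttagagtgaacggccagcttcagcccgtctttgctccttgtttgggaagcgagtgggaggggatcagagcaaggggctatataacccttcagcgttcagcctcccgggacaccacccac
The capitals mark a form of the CArG box, the element that serum response factor binds in smooth muscle genes, which starts 84 bases before the annotated start. Searched on both strands, this form is in 0.155% of 27025 promoters of this length. Of the 28 members with a promoter sequence it is in 1, Acta2. The form searched for is that of Acta2 itself, and other forms of the CArG box were not counted. These shares therefore cannot tell whether Acta2 differs from other members in its CArG boxes. The match is a description of the sequence, and binding was not measured.

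**Figure D3:**
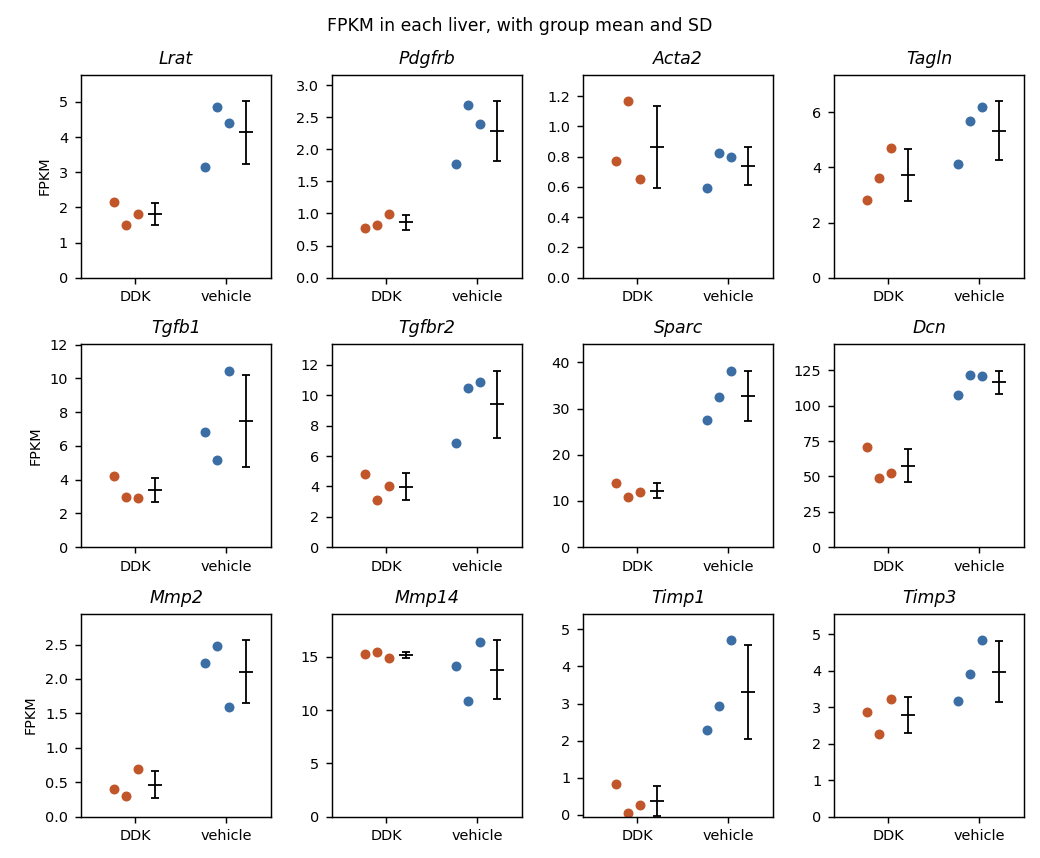
FPKM of 12 members in each liver, DDK left and vehicle right, with the group mean and SD beside the points. Lrat, Pdgfrb, Tgfb1, Tgfbr2, Sparc, Dcn, Mmp2 and Timp1 show separate groups, whereas Acta2, Tagln, Mmp14 and Timp3 overlap.

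In the TGF-beta axis the ligand Tgfb1 and the type II receptor fell. Tgfb1, the main profibrotic isoform, made by macrophages and endothelial as well as stellate cells, had 4.21, 3.00 and 2.92 FPKM in DDK livers and 6.82, 5.17 and 10.5 in vehicle livers. Vehicle replicate 3 was about 2-fold above vehicle replicate 2, and no vehicle liver was as low as any DDK liver. The change was -0.92 ± 0.23 (limma, adjusted p = 0.0114), and without a filter on low values the adjusted p was 0.0502, in a range of 0.00433 to 0.0502 over its alternatives. Tgfbr2, the receptor that binds the ligand first, had 4.84, 3.08 and 4.05 FPKM in DDK livers and 6.87, 10.5 and 10.9 in vehicle livers. It separated the groups too (-1.05 ± 0.20, limma, adjusted p = 0.00395). The other 2 ligands were scarce. Tgfb3 gave 12, 6 and 9 fragments in DDK and 49, 66 and 47 in vehicle libraries, a 4.97-fold lower mean FPKM (voom log2 fold change -2.26 ± 0.60, adjusted p = 0.0160). Leaving out any DDK library ended that call (adjusted p = 0.0530 to 0.0803, in a range of 0.0115 to 0.0803 over its alternatives). Tgfb2 gave 9, 1 and 15 fragments in DDK and 6, 54 and 70 in vehicle (voom, adjusted p = 0.264). Vehicle replicate 1 was among the DDK values for Tgfb2, and without it the adjusted p was 0.0115, the lowest in a range that reached 0.604.

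Of the type I receptor and the SMAD genes, Smad2 passed the test. Tgfbr1, the signalling kinase, stood at 2.35 ± 0.298 FPKM in DDK and 3.64 ± 1.02 in vehicle (limma, adjusted p = 0.0773), and it passed without vehicle replicate 1 (0.00587) and under TPM (0.0330), in a range of 0.00587 to 0.474. Smad2, which carries the signal to the nucleus, had 0.542, 0.412 and 0.437 in DDK and 0.751, 1.27 and 1.68 in vehicle (-0.59 ± 0.16, limma, adjusted p = 0.0173). Its groups did not overlap, and the call was lost in 4 of 19 alternatives (adjusted p from 0.00253 to 0.0679). Smad3, its partner, averaged 1.71 ± 0.489 in DDK and 2.40 ± 0.204 in vehicle (limma, adjusted p = 0.106), and passed without DDK replicate 3 (0.0381) in a range of 0.0381 to 0.919. The inhibitory Smad7 had 1.53, 0.873 and 1.03 in DDK and 1.55, 2.01 and 2.0 in vehicle. DDK replicate 1 and vehicle replicate 1 were nearly equal for Smad7, and the difference missed the threshold (-0.42 ± 0.15, limma, adjusted p = 0.0513). Smad7 passed without DDK replicate 1 (0.0365) or vehicle replicate 1 (0.0270), in a range of 0.0200 to 0.533. Under TPM all 4 of the genes Tgfbr1, Smad3, Smad7 and Smad2 passed as lower. Summed over all 8 genes of the axis, the FPKM was 11.3 to 14.7 in DDK and 21.2 to 32.6 in vehicle.

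Matrix glycoproteins and proteoglycans held the most abundant members. Fn1, fibronectin, had 96.0, 91.2 and 99.8 FPKM in DDK livers and 99.5, 124 and 132 in vehicle livers. Vehicle replicate 1 lay within the DDK range, and the difference did not pass (-0.30 ± 0.14, limma, adjusted p = 0.109). It passed without vehicle replicate 1 (0.0141) and under TPM (0.0189), and stood at 0.013 after median-ratio scaling, with adjusted p from 0.0141 to 0.990. Dcn, decorin, a small leucine-rich proteoglycan that binds collagen and TGF-beta, had 70.8, 49.1 and 52.5 FPKM in DDK and 107, 121 and 121 in vehicle. It was second to Fn1 in mean level in both groups and fell by 1.03 ± 0.15 on the log2 scale (limma, adjusted p = 0.00174). Bgn, the related biglycan, had 26.7, 19.8 and 24.5 FPKM in DDK and 44.8, 44.5 and 57.3 in vehicle, and fell by 1.02 ± 0.16 (adjusted p = 0.00183). For both, each DDK liver was far below each vehicle liver.

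Lum, lumican, of the same proteoglycan family, was lower in level. It had 1.34, 1.45 and 1.45 FPKM in DDK and 3.96, 9.11 and 6.77 in vehicle livers. DDK livers were nearly alike, whereas vehicle replicate 2 was more than 2-fold above vehicle replicate 1, and mean Lum was 4.68-fold lower in DDK (-1.60 ± 0.23, limma, adjusted p = 0.00149). Sparc, osteonectin, a collagen-binding glycoprotein of active fibroblasts and endothelium, had 13.9, 10.8 and 12.1 FPKM in DDK and 27.4, 32.4 and 38.2 in vehicle. Its adjusted p of 0.000699 by limma was the smallest of the members, at a change of -1.34 ± 0.16. Postn, periostin, a matricellular protein, stood at 1.84, 1.83 and 1.96 in DDK and 3.75, 5.06 and 6.19 in vehicle (-1.04 ± 0.17, limma, adjusted p = 0.00222). In each of these genes the groups were separate.

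Of the basement membrane members, Nid1, Lamb1 and Lamc1 fell. Nid1, nidogen, which joins laminin to collagen IV, had 0.581, 0.442 and 0.990 FPKM in DDK livers and 2.10, 3.27 and 4.55 in vehicle livers. Every vehicle liver was more than 2-fold above the highest DDK liver (-1.34 ± 0.22, limma, adjusted p = 0.00210). Lamb1, laminin beta 1, fell to 0.972 ± 0.151 in DDK, against 1.72 ± 0.102 in vehicle (limma, adjusted p = 0.0172), and Lamc1, laminin gamma 1, to 1.33 ± 0.331, against 2.32 ± 0.661 (limma, adjusted p = 0.0472). DDK replicate 3 and vehicle replicate 1 crossed for Lamc1, whose call was lost in 8 of 20 alternatives (adjusted p from 0.0113 to 0.278). That of Lamb1 was lost in 6 of 20 (0.00795 to 0.335), and both were lost after median-ratio scaling. Lama4, laminin alpha 4, had 0.546, 0.554 and 0.274 in DDK and 0.348, 0.397 and 0.633 in vehicle. Its groups overlapped, with a change of -0.00 ± 0.13 and a 95% interval of -0.30 to 0.29 (limma, adjusted p = 0.990), and the sign turned positive after length correction (0.32). With that correction the adjusted p was 0.0879, the lowest in a range that reached 0.991. Hspg2, perlecan, the large heparan sulfate proteoglycan, stood at 0.898 ± 0.103 in DDK and 1.22 ± 0.329 in vehicle (limma, adjusted p = 0.230).

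Elastic fibre genes were low in level. Eln, elastin, had 0.166, 0.218 and 0.225 FPKM in DDK livers and 0.746, 0.707 and 0.941 in vehicle livers, a 3.93-fold lower mean (limma, adjusted p = 0.00419, and voom, 0.00676). All 3 vehicle livers were more than 3-fold above any DDK liver, and the call was lost after length correction (0.0719, the highest of its alternatives, whose lowest was 0.00222). Fbln2, fibulin 2, stood at 0.180 ± 0.055 in DDK and 0.632 ± 0.127 in vehicle (limma, adjusted p = 0.0107), a call lost in 3 of 15 alternatives (0.00416 to 0.431). By voom the adjusted p for Fbln2 was also 0.0107. Fbn1, fibrillin 1, of the microfibrils that hold latent TGF-beta, gave 17, 42 and 27 fragments in DDK and 75, 130 and 146 in vehicle (voom, -1.77 ± 0.51, adjusted p = 0.0233). That call was lost in 5 of 7 alternatives (0.00297 to 0.0954). Exons on the opposite strand cover 20.1% of the exonic bases of Fbn1. Fbln1, fibulin 1, did not separate, at 0.167 ± 0.0834 in DDK and 0.188 ± 0.0756 in vehicle (voom, adjusted p = 0.856). Thbs1, thrombospondin 1, which can activate latent TGF-beta, had 15, 46 and 26 fragments in DDK and 52, 65 and 202 in vehicle (voom, adjusted p = 0.124). Most of its vehicle signal was in replicate 3, and without vehicle replicate 1 the adjusted p was 0.0400, in a range of 0.0400 to 0.320.

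The 3 crosslinkers, lysyl oxidases that join collagen and elastin chains, were all lower in DDK. Lox gave 1, 1 and 0 fragments in DDK libraries and 19, 31 and 39 in vehicle libraries. Summed over each group, that is 2 against 89 fragments, a rate ratio of 0.0274 with an exact 95% interval of 0.00327 to 0.102 that covers counting error only. By voom the change was -4.52 ± 1.10 (adjusted p = 0.0114), and leaving out any DDK library gave 0.0553 to 0.0628, in a range of 0.00559 to 0.0628. Loxl1 had 0.740, 0.451 and 0.307 FPKM in DDK and 1.24, 1.31 and 1.73 in vehicle (-0.70 ± 0.15, limma, adjusted p = 0.00614). Loxl2 had 0.261, 0.0963 and 0.237 in DDK and 0.619, 0.534 and 1.19 in vehicle (-0.56 ± 0.15, limma, adjusted p = 0.0170, and voom, 0.0160). No DDK liver reached any vehicle liver for either gene, and the Loxl2 call was lost in 3 of 15 alternatives (0.00838 to 0.199). The summed FPKM of the 3 genes was 0.544 to 1.01 in DDK and 1.97 to 3.17 in vehicle.

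The 4 matrix metalloproteinases split by level. Mmp14, the membrane-bound MT1-MMP that activates pro-MMP2, had 15.2, 15.4 and 14.9 FPKM in DDK livers and 14.1, 10.9 and 16.4 in vehicle livers. DDK livers lay within the vehicle range (0.15 ± 0.16, limma, 95% interval -0.20 to 0.50, adjusted p = 0.463), and the sign turned under TPM (-0.075). Over the alternatives adjusted p for Mmp14 ran from 0.0507 to 0.995. Mmp19, which cleaves basement membrane proteins, had 14.1, 15.6 and 16.4 in DDK and 16.5, 19.4 and 18.8 in vehicle. The groups touched without overlapping, and the difference did not pass (-0.23 ± 0.13, limma, adjusted p = 0.170) except under TPM (0.0304, in a range of 0.0304 to 0.943), with the sign turned after median-ratio scaling (0.062). Exons of genes on the opposite strand cover 28.3% of its exonic bases. The rarer proteases both fell. Mmp2, gelatinase A, made by stellate cells and fibroblasts, had 0.402, 0.305 and 0.692 FPKM in DDK and 2.24, 2.48 and 1.60 in vehicle. Vehicle levels were more than 2-fold above the highest DDK liver (-1.08 ± 0.16, limma, adjusted p = 0.00154).

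Mmp13, collagenase 3, the main interstitial collagenase of mice, gave 0, 2 and 1 fragments in DDK libraries and 22, 66 and 43 in vehicle libraries. The 3 fragments of DDK against 131 of vehicle are a rate ratio of 0.0279, with an exact 95% interval of 0.00568 to 0.0833 for counting error. By voom the change was -4.74 ± 1.19 (adjusted p = 0.0129), and leaving out any DDK library gave 0.0605 to 0.0665, in a range of 0.00353 to 0.0665. Its promoter is shown as that of the member with the largest voom change, from RefSeq on GRCm38.p6, chr9:7272264-7272563 on the plus strand, with the same window.
Mmp13: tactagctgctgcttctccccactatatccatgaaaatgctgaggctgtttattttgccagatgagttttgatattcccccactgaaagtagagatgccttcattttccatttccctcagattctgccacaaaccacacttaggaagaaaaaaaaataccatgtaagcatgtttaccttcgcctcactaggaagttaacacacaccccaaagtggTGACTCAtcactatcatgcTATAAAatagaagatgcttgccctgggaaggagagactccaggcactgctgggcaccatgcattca
The capitals mark TGANTCA, which includes the AP-1 site, 35 bases before the annotated start, and TATAAA, the core of a TATA box, 16 bases before it. Searched on both strands, TGANTCA is in 7.93% of the 27025 promoters and in 1 of the 28 members, Mmp13. TATAAA is in 14.2% of promoters and in 4 of the 28 members, Ddr2, Tgfb2, Vim and Mmp13. These matches describe the letters in the window, and factor binding was not measured.

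Of the 3 inhibitors, Timp1 and Timp2 fell. Timp1, the inducible inhibitor that rises in fibrosis, had 0.824, 0.0425 and 0.261 FPKM in DDK livers and 2.28, 2.94 and 4.72 in vehicle livers. DDK libraries held 21, 1 and 7 fragments and vehicle libraries 73, 89 and 142, so DDK values varied widely and still lay below every vehicle value. Mean Timp1 was 8.81-fold lower in DDK, and 21.8-fold without DDK replicate 1 (limma log2 fold change with all libraries -1.65 ± 0.24, adjusted p = 0.00162). Timp2, which also serves MMP14 in activating MMP2, had 3.36, 2.06 and 2.96 in DDK and 5.38, 6.42 and 7.21 in vehicle (-0.96 ± 0.17, limma, adjusted p = 0.00343). Timp3, which binds to the matrix itself, stood at 2.88, 2.27 and 3.23 in DDK and 3.18, 3.91 and 4.84 in vehicle. DDK replicate 3 and vehicle replicate 1 crossed for Timp3, which did not pass (-0.39 ± 0.17, limma, adjusted p = 0.0925) except under TPM (0.0347) and without vehicle replicate 1 (0.0270), in a range of 0.0270 to 0.688. Exons of Syn3 on the opposite strand cover 21.3% of the exonic bases of Timp3. Ddr2, a receptor for fibrillar collagen, was at 0.313 ± 0.0747 in DDK and 0.450 ± 0.0607 in vehicle (voom, adjusted p = 0.197), with the groups just apart.

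**Figure D4:**
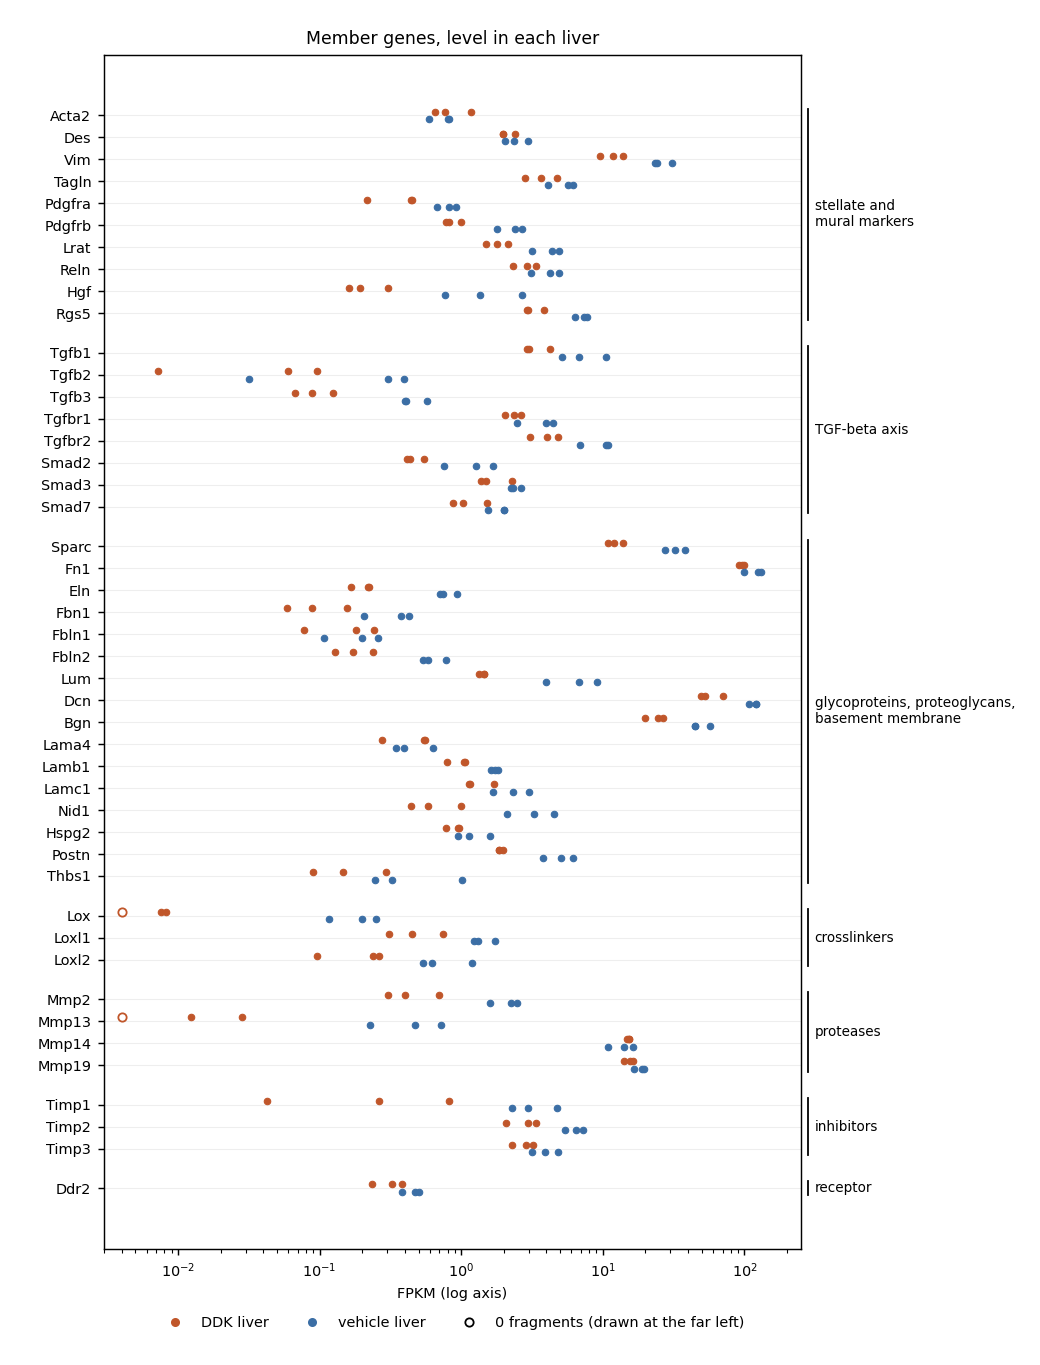
FPKM of all 45 members in each of 6 livers on a log axis, by role, with open circles for 0 fragments. Fn1 and Dcn lead at 49.1 to 132 FPKM, and the DDK points of Lox, Mmp13 and Timp1 lie far to the left of the vehicle points.

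In level, the first 3 of the 45 genes by mean FPKM in both groups were Fn1 (95.7 ± 4.31 in DDK and 118 ± 16.8 in vehicle), Dcn (57.4 ± 11.7 in DDK and 117 ± 8.09 in vehicle) and Bgn (23.6 ± 3.50 in DDK and 48.8 ± 7.32 in vehicle). In vehicle livers Fn1 and Dcn did not differ beyond their spread, while in DDK livers every Fn1 value was above every Dcn value. Mmp14 ranked 5 in DDK and 7 in vehicle. Timp1 ranked 32 in DDK and 19 in vehicle, Lum 20 in DDK and 11 in vehicle, and Acta2 25 in DDK and 35 in vehicle.

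Differences between 2 members within a library were compared for 7 pairs by an exact two-sided permutation test. The offset of 1 FPKM bears on them where a gene is low: with 0.1 in its place the difference for Timp1 minus Timp3 was -2.68. With 3 livers against 3 the smallest p it can give is 0.10, which adjusts to 0.175 over the 7 pairs, so no pair could pass. Acta2 minus Lrat in log2(FPKM + 1) was -0.82, -0.20 and -0.76 in DDK and -1.38, -1.68 and -1.58 in vehicle, without overlap (difference 0.95, exact p = 0.10). Timp1 minus Timp3 was -1.09, -1.65 and -1.75 in DDK and -0.35, -0.32 and -0.03 in vehicle, also without overlap (difference -1.26, exact p = 0.10). Lama4 minus Lamb1 (0.46) and Sparc minus Dcn (-0.31) reached the same p. The groups overlapped for Tagln minus Lrat (0.44, exact p = 0.30), Timp1 minus Mmp2 (-0.57, exact p = 0.30) and Tgfb1 minus Tgfbr2 (0.13, exact p = 0.90).

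**Figure D5:**
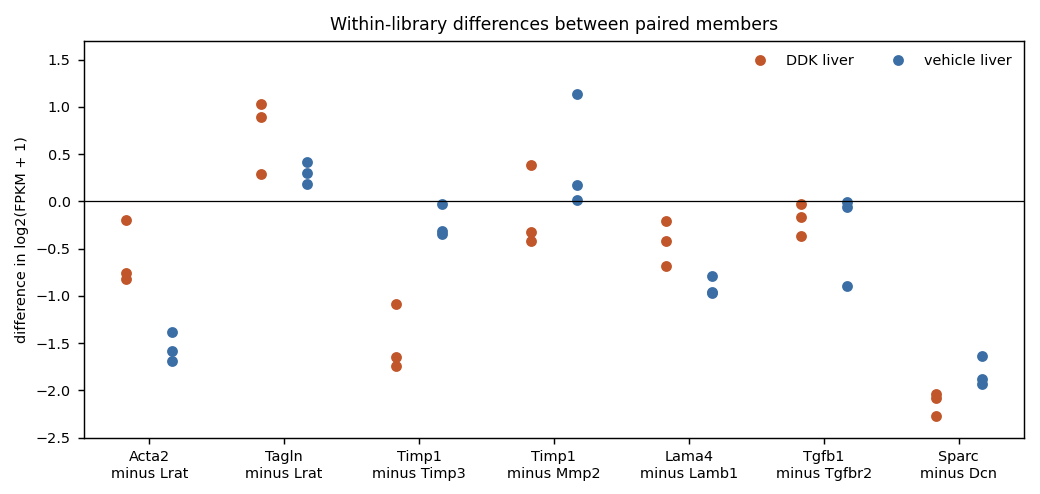
Difference in log2(FPKM + 1) between 2 members in the same library, for 7 pairs, with 3 DDK livers left and 3 vehicle livers right in each pair. Acta2 minus Lrat and Lama4 minus Lamb1 lie higher in DDK and Timp1 minus Timp3 and Sparc minus Dcn lower, each without overlap.

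Other genes of the same systems were taken from 6 lists of 177 genes in all, and a few genes are on more than 1 list. These were chosen by function, also with earlier results of these data known. Of the 116 that passed the filter, 56 fell (48.3%) and 2 rose by limma, against the 30.3% and 10.2% of all genes. Of 24 other stellate and pericyte genes tested, 15 fell and 0 rose (0 also at an unadjusted p under 0.05). By voom, which took in 28 of them, 1 rose, the smooth muscle actin Actg2, at 0.375 ± 0.177 FPKM in DDK and 0.050 ± 0.0529 in vehicle (adjusted p = 0.0496). Sod3, the extracellular superoxide dismutase, stood at 12.9 ± 0.712 in DDK and 24.6 ± 2.49 in vehicle (limma, adjusted p = 0.00157). Abcc9, a potassium channel subunit of pericytes, stood at 1.69 ± 0.279 in DDK and 3.17 ± 0.250 in vehicle (limma, adjusted p = 0.00735). Steap4, a metalloreductase that hepatocytes also make, stood at 7.05 ± 1.93 in DDK and 43.5 ± 9.80 in vehicle (limma, adjusted p = 0.000249). Of 31 other TGF-beta pathway genes, 12 fell, and 1 rose. Tgfbi, a TGF-beta-induced matrix protein, stood at 12.0 ± 2.17 in DDK and 27.9 ± 2.49 in vehicle (limma, adjusted p = 0.00103). Furin, the protease that cleaves the TGF-beta precursor, averaged 22.5 ± 3.36 in DDK and 45.4 ± 8.35 in vehicle, and Smad5, of the BMP branch, 1.24 ± 0.230 in DDK and 3.32 ± 0.831 in vehicle. Id1, a BMP target, was the one that rose, with 25.4 ± 4.83 in DDK and 12.6 ± 4.24 in vehicle (limma, adjusted p = 0.00784). The related Id2 and Id3 did not rise with it. Id2 fell (78.0 ± 13.5 in DDK and 120 ± 15.6 in vehicle, limma, adjusted p = 0.0155), and Id3 did not pass (55.1 ± 13.3 in DDK and 56.0 ± 14.7 in vehicle, limma, adjusted p = 0.951). Ccn2, connective tissue growth factor, named after its values were seen, stood at 2.81 ± 1.30 in DDK and 6.02 ± 3.23 in vehicle (limma, adjusted p = 0.0736).

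Of 3 PDGF ligand genes tested, 3 fell. None averaged 1 FPKM over the 6 livers, and Pdgfc, named after its values were seen, had 0.403 ± 0.133 in DDK and 1.55 ± 0.207 in vehicle (limma, adjusted p = 0.00171). Of 33 other glycoprotein, proteoglycan and basement membrane genes, 14 fell and 1 rose by limma. Prelp, a leucine-rich proteoglycan, had 4.33 ± 0.577 FPKM in DDK and 14.1 ± 2.50 in vehicle, Lamb3, laminin beta 3, 0.831 ± 0.222 in DDK and 3.89 ± 0.762 in vehicle, and Gpc1, a cell surface heparan sulfate proteoglycan, 5.44 ± 1.06 in DDK and 11.8 ± 1.06 in vehicle. Sdc2, syndecan 2, which hepatocytes also make, was the one that rose by limma (53.4 ± 1.70 in DDK and 32.8 ± 0.417 in vehicle, adjusted p = 0.00230). By voom, which took in 57 genes of this list, 2 rose, Sdc2 and Vtn. Vtn, vitronectin, stood at 1466 ± 12.2 in DDK and 1106 ± 171 in vehicle (voom, adjusted p = 0.0356, and limma, 0.0521). The list summed to 1887 to 1919 FPKM in DDK and 1416 to 1731 in vehicle, most of it Vtn. Of 16 other crosslinking and collagen-processing genes 5 fell and 0 rose, a share near the 30.3% of all genes that fell. Those that fell include the collagen chaperone Serpinh1 (3.31 ± 0.643 in DDK and 9.19 ± 0.910 in vehicle), the transglutaminase Tgm2 (30.7 ± 2.45 in DDK and 62.6 ± 13.4 in vehicle) and the prolyl hydroxylase subunit P4ha1 (1.36 ± 0.00785 in DDK and 2.39 ± 0.266 in vehicle). Of 12 other protease and inhibitor genes, 7 fell and 0 rose. Mmp12, macrophage elastase, had 0.0798 ± 0.0185 in DDK and 4.77 ± 2.19 in vehicle (limma, adjusted p = 0.000432), the membrane protease Adam9 5.47 ± 1.32 in DDK and 17.9 ± 4.82 in vehicle, and Adamts1, which cleaves proteoglycans, 0.849 ± 0.458 in DDK and 2.16 ± 0.523 in vehicle.

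Markers of other cell types were read beside these genes, against the 30.3% of all genes that fell and the 10.2% that rose by limma. Of 13 macrophage markers 10 fell, and their summed FPKM was 192 to 481 in DDK and 663 to 1062 in vehicle. Of 10 endothelial markers 6 fell, with sums of 46.5 to 59.3 in DDK and 73.5 to 108 in vehicle. Of 8 portal fibroblast markers 5 were tested and 3 fell, with sums of 6.15 to 6.50 in DDK and 9.77 to 13.8 in vehicle. The 6 smooth muscle markers summed to 5.95 to 7.19 in DDK and 7.08 to 10.4 in vehicle, most of it Mylk. Of the 2 tested by limma 0 passed, 1 was lower at an unadjusted p under 0.05, and by voom 1 of 6 rose, Actg2. Mean FPKM was lower in DDK for Mylk, Smtn and Lmod1, and higher for Myh11, Cnn1 and Actg2. For Cnn1 and Actg2 every DDK liver was above every vehicle liver. By voom Cnn1 (log2 fold change 2.35, adjusted p = 0.126) and Myh11 (0.99, adjusted p = 0.1495) did not pass. The median voom log2 fold change of these smooth muscle markers was 0.22. The 6 mesothelial markers summed to 0.298 to 2.10 in DDK and 1.32 to 5.64 in vehicle, and 0 passed by limma, by voom or at an unadjusted p under 0.05 by limma. Of 5 cholangiocyte markers tested by limma 1 rose, Krt7 (adjusted p = 0.0265), which did not pass by voom (adjusted p = 0.107). The 6 genes summed to 36.3 to 62.1 in DDK and 46.4 to 68.7 in vehicle, most of it Spp1 (42.5 ± 12.9 in DDK and 51.4 ± 10.3 in vehicle). Of 8 hepatocyte markers 4 rose and 0 fell. No gene of these lists was at 0 in all 6 libraries, and the part of these cell types in the members' differences was not tested.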

How the data were processed

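Total RNA of 6 frozen livers (1.3 µg each) was made into libraries with a NEBNext Ultra RNA kit, per the labels' protocols, and that kit does not mark strand. The authors deposited 1 table of FPKM values per gene and mouse. The submitters' processing notes name GRCm38 and mm10, and the aligner, counter and annotation are not given in the sources used here. Fragment counts and library totals were recovered from the FPKM steps (100.0% whole within 0.01).

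The main test was limma 3.58.1 (R 4.3.3, trended variance) on log2(FPKM + 1), a scale that understates the change of low genes, for genes with 3 or more libraries at or above 0.5 FPKM, with Benjamini-Hochberg adjustment over all genes. Voom on fragments (at least 10 in total) was added after the data were seen. Fold changes are DDK over vehicle. Replicates are separate mice. Replicate pairs differed beyond counting noise, so none was merged. The members and lists were chosen with earlier results of these data known. The text names every member and, from each other list, the 3 genes with the smallest p among those that passed at a mean FPKM of at least 1. Actg2, Ccn2, Cnn1, Id1, Id2, Id3, Krt7, Lmod1, Myh11, Mylk, Pdgfc, Sdc2, Smtn, Spp1 and Vtn were named after their values were seen. Intervals on counts cover counting error only. Alternatives covered pseudocounts, filters, scalings, length correction, variance models, a replicate block and leaving out each library. Voom with 1 library left out was counted among a gene's alternatives only where the gene did not enter the main test.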

Additional observations from a re-analysis of the deposited data

How the results depend on the processing

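Members that fell numbered 24 by limma, 16 to 25 with 1 library left out, 32 under TPM, 21 with median-ratio factors, 19 with quantile normalization and 18 with length correction, and 0 rose in any of these. By voom they numbered 28, and 15 to 36 with 1 library left out. Of the 24, 16 kept their call in every alternative that tested them, apart from voom with 1 library left out. They were Vim, Pdgfrb, Lrat, Hgf, Rgs5, Tgfbr2, Sparc, Lum, Dcn, Bgn, Nid1, Postn, Loxl1, Mmp2, Timp1 and Timp2. Hgf, which reached 0.5 FPKM in no DDK liver, was tested in only 16 of those alternatives. By voom without DDK replicate 2, 15 members fell, so not every gene just named kept its call there. Over all genes, 3234 fell and 1093 rose; the counts were 4929 and 631 under TPM, 1650 and 1963 with median-ratio factors, 1743 and 1886 with quantile normalization, 1844 and 1722 with length correction, and 1711 to 4127 and 599 to 1351 with 1 library left out. Genes of the other lists that fell numbered 56, against 35 with median-ratio factors, 29 with quantile normalization, 28 with length correction and 26 to 58 with 1 library left out. Those that rose, 2 in the main test, were 4, 4 and 7 in the same order, 4 by voom with at least 10 fragments and 2 to 3 with 1 library left out. The members' median relative to all genes, -0.35, was -0.79 and -0.58 with pseudocounts of 0.1 and 0.5, -0.60 with a filter at FPKM 1, -0.46 with median-ratio factors or TPM, -0.84 by voom and -0.81 by voom with at least 10 fragments, and -0.48 to -0.35 with 1 library left out. With a pseudocount of 0.1 the pair differences were 1.31 for Acta2 minus Lrat, -2.68 for Timp1 minus Timp3 (-1.73 with 0.5), -1.17 for Timp1 minus Mmp2 and 0.75 for Lama4 minus Lamb1. With 1 library left out they ranged from 0.76 to 1.07 for Acta2 minus Lrat, 0.29 to 0.66 for Tagln minus Lrat, -1.46 to -1.14 for Timp1 minus Timp3, -0.82 to -0.22 for Timp1 minus Mmp2, 0.35 to 0.59 for Lama4 minus Lamb1, -0.16 (without vehicle replicate 2, the sign turned) to 0.29 for Tgfb1 minus Tgfbr2 and -0.37 to -0.23 for Sparc minus Dcn. Signs turned, without a call, for Acta2 under TPM (-0.022) and without DDK replicate 2 (-0.021, with the other libraries left out up to 0.17), and for Des with median-ratio factors (0.071), quantile normalization (0.14) and length correction (0.13). They turned for Fn1 with median-ratio factors (0.013), and for Lama4 with median-ratio factors (0.099), quantile normalization (0.20), length correction (0.32) and without DDK replicate 3 (0.092, in a range from -0.057). They also turned for Hspg2 with quantile normalization (0.014) and length correction (0.030), Mmp14 under TPM (-0.075) and without vehicle replicate 2 (-0.0016, in a range up to 0.27), Mmp19 with median-ratio factors (0.062) and length correction (0.059), and Fbln1 by voom without DDK replicate 2 (0.25) and vehicle replicate 2 (0.089, in a range from -0.54). The causes of these shifts were not tested. Replicate numbers gave no pairing: deviations of same-numbered livers correlated at 0.141, -0.146 and 0.0558, and with a replicate block 23 members fell, with Pdgfra lost (adjusted p = 0.0520, in a range of 0.0137 to 0.501). Depth limits Lox, Mmp13, Tgfb2, Tgfb3 and Timp1 most, each with under 30 fragments summed over the DDK libraries.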
